A study of Mus musculus with 6 samples.

Results

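The interleukin-10 family genes described here are 4 ligand genes that lie side by side on chromosome 1, IL10, IL19, IL20 and IL24, and 3 receptor chain genes, IL10RA, IL10RB and IL20RB. They were taken by name and are 7 of the 20036 genes in the deposited table. Their transcripts were counted by RNA sequencing in 3 Melittin and 3 NC libraries of THP-1, a monocytic cell line from a patient with acute leukaemia. Per the series' design text, PMA, a phorbol ester that turns these cells into adherent macrophage-like cells, was given at 100 ng/ml for 48 h, below the porous insert of a Transwell plate. Tumour cells sat above the insert, and the co-culture of 48 h contained 3 µg/ml of melittin, a membrane-lysing peptide from bee venom. The labels do not spell out NC, and they do not say whether NC wells held tumour cells or a vehicle, so melittin and co-culture cannot be told apart. The cells are a single leukaemia line and not primary macrophages.

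Interleukin-10 is a cytokine that macrophages secrete late in their activation and that dampens inflammatory gene expression. It binds IL10RA, the chain specific to it, together with IL10RB, which it shares with interleukin-22, interleukin-26 and the lambda interferons, and it signals through JAK1 and TYK2 to STAT3. The products of IL19, IL20 and IL24 act mainly on epithelial cells such as keratinocytes, through IL20RB paired with IL20RA or, for interleukin-20 and interleukin-24, with IL22RA1. Monocytes and macrophages are known sources of these ligands.

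Library totals were between 16192032 and 19521897 counts in Melittin and between 16001423 and 19597781 counts in NC. The organism label reads mouse, but all 20036 identifiers in the table were human. Of 12 macrophage and monocyte markers, 11 were tested, and CSF1R, CD14, SPI1 and ITGAX were well above the detection limit in both groups. CD68 was an exception, with 1 count in Melittin libraries and 0 in NC libraries together, and LYZ was low at 20 to 105 counts per library. Of 13 tumour and epithelial markers, 7 had 0 counts in all 6 libraries, among them EPCAM, KLK2, KRT18 and KRT19. Of the others, KLK3 had 2 counts in Melittin and 0 in NC libraries, CDH1 had 1 in each group, KRT8 had 17 in Melittin and 8 in NC, and CLDN4 had 24 in Melittin and 4 in NC. Of the list, 2 genes were tested, of which 1 rose and 0 fell, where 38.1% of all tested genes rose and 38.3% fell. CPM here is the read count relative to the library total after scaling by TMM, a method that sets the libraries to a common centre over most genes. The summed level of the list was 93.5 to 105.9 CPM in Melittin and 65.0 to 68.9 CPM in NC libraries. Of 6 lymphocyte markers, CD3D and MS4A1 were at 0, and NKG7 was the only tested one, at 9.96 ± 0.781 CPM in Melittin and 3.23 ± 0.447 CPM in NC libraries (SD, n = 3 each); the summed level was 9.76 to 11.3 CPM in Melittin and 2.77 to 3.86 CPM in NC libraries. The part of other cell types in the results below was not tested.

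IL24, IL10 and IL10RA were higher in Melittin than in NC libraries. IL20 was detected almost only in Melittin libraries, and no change was shown for IL10RB, IL20RB or IL19. Of the 7 genes, 5 passed the low-count filter and were tested. By edgeR's quasi-likelihood test with Benjamini-Hochberg adjustment over all 12029 tested genes, 3 rose and 0 fell at an adjusted p under 0.05. In the same comparison 76.4% of all tested genes passed, 38.1% higher and 38.3% lower, so 3 of 5 is no more than the table as a whole gave. Against a fold change of 1.5 in place of no change, IL10, IL24 and IL10RA passed as well, where 29.1% of all tested genes did. IL24 and IL10 were also past a 2-fold change, as were 19.5% of all tested genes. In 4 of the 7 genes (IL10, IL20, IL24 and IL10RA) the lowest Melittin library lay above the highest NC library; 77.4% of all tested genes had groups that did not overlap. In bulk RNA, more cells that express a gene and more RNA per cell cannot be told apart. The labels do not tie the replicates to separate cultures, and the p-values therefore rest on a spread among libraries that may be no more than technical.

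**Figure D1:**
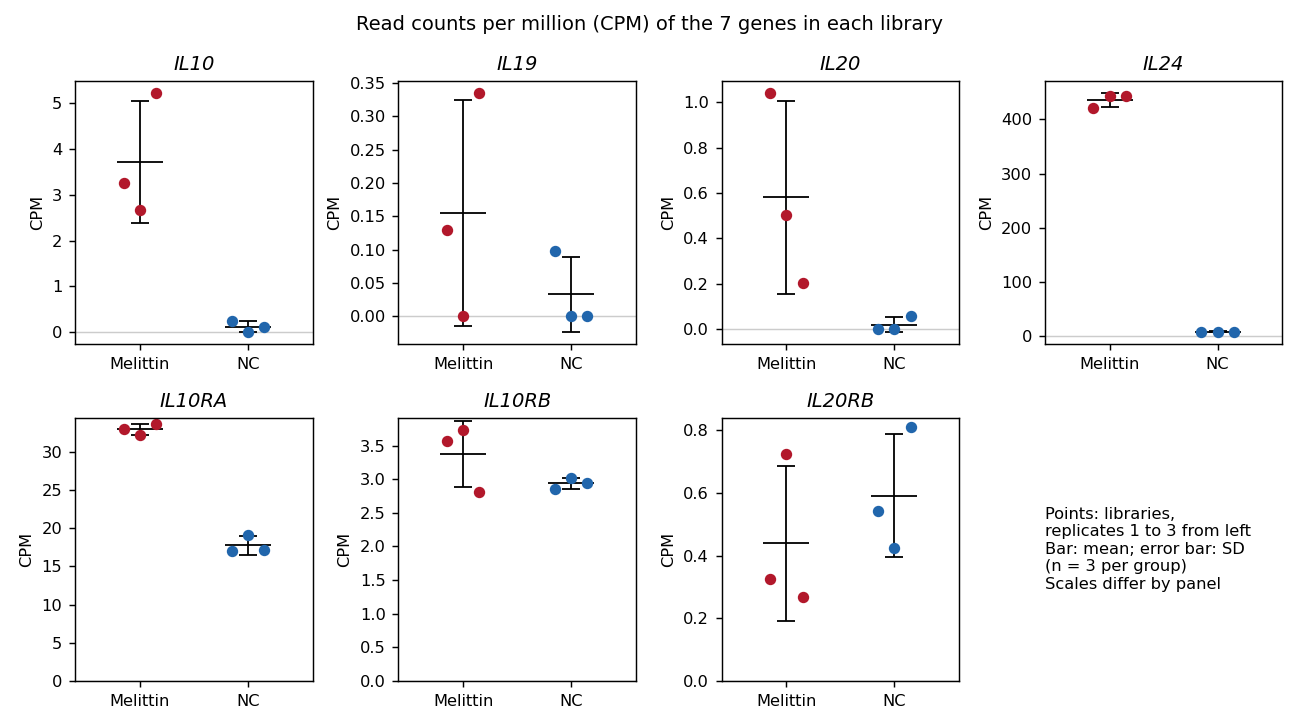
Level of each of the 7 genes in CPM (y axis, a separate scale for each panel) in 3 Melittin libraries (red, left) and 3 NC libraries (blue, right), with the mean and SD. The groups are apart for IL10, IL20, IL24 and IL10RA, and overlap for IL19, IL10RB and IL20RB.

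Among the ligands, IL24 (chromosome 1, 206897443 to 206904139, plus strand, GRCh38) was the dominant transcript. Interleukin-24, also called MDA-7, was first described as a gene of melanoma differentiation and is secreted by activated monocytes. It had 6469, 7976 and 6603 counts in Melittin libraries 1, 2 and 3, against 140, 175 and 142 counts in NC libraries 1, 2 and 3. On the CPM scale the Melittin libraries stood at 420.7, 443.9 and 442.6, against 6.89, 8.24 and 8.21 CPM in NC libraries. All 3 Melittin values lay close together and far above all 3 NC values. The rise was 56.1-fold (95% interval 52.4 to 60.05; log2 fold change 5.81, SE 0.0480, edgeR adjusted p = 3.79e-34). Per gene length, IL24 ranked 154 to 162 of 20036 genes in Melittin libraries, against 5803 to 6318 in NC libraries. Of the summed FPKM (counts scaled by gene length and library total) of the 4 ligands, IL24 made up 99.3% to 99.6% in Melittin and 98.0% to 100% in NC libraries.

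IL10 (chromosome 1, 206767602 to 206774541, minus strand), the gene of the anti-inflammatory cytokine itself, had 50, 48 and 78 counts in Melittin libraries 1, 2 and 3, against 5, 0 and 2 counts in NC libraries 1, 2 and 3. These were 3.25, 2.67 and 5.23 CPM in Melittin libraries, against 0.246, 0 and 0.116 CPM in NC libraries. Melittin library 3 was the highest, and the groups did not overlap. A count of 0 in NC library 2 allows a level of up to 0.153 CPM (3 counts). The rise was 29.3-fold (95% interval 15.2 to 56.4; log2 fold change 4.87, SE 0.461, edgeR adjusted p = 2.45e-10). NC libraries held 7 counts in all, so IL10 passed the filter only through its Melittin libraries and the size of the fold rests on few counts. Without NC library 1, which held 5 of these counts, the log2 fold change was 5.96, and without NC library 2 it was 4.25. IL10 was a low transcript in both groups, at 0.790 ± 0.284 FPKM in Melittin and 0.0301 ± 0.0307 FPKM in NC libraries (SD, n = 3 each).

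IL20 (chromosome 1, 206865623 to 206869223, plus strand), whose product drives keratinocyte growth, had 16, 9 and 3 counts in Melittin libraries 1, 2 and 3, against 0, 0 and 1 count in NC libraries 1, 2 and 3. The Melittin libraries were widely spread and all lay above the NC libraries. The summed counts were 28 in Melittin (exact Poisson 95% interval 18.6 to 40.5) and 1 in NC (0.0253 to 5.57), a ratio of 34.2 per scaled library (exact 95% interval 5.65 to 1396). These intervals cover counting error only. IL20 did not pass the low-count filter. Without a filter, where 59.9% of 15974 genes passed, its log2 fold change was 4.60 (SE 1.04, edgeR adjusted p = 2.39e-05). That value was 3.93 without Melittin library 1 and 6.39 without NC library 3, which held the only NC count. The unfiltered fit also gave IL10 a much smaller adjusted p (1.13e-33) than the filtered fit, so its p-values are read with caution.

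IL19 (chromosome 1, 206770764 to 206842981, plus strand), whose product signals through IL20RA paired with IL20RB, was near the detection limit. It had 2, 0 and 5 counts in Melittin libraries 1, 2 and 3, against 2, 0 and 0 counts in NC libraries 1, 2 and 3. The groups overlapped, and the ratio of summed counts, 4.27 per scaled library, had an exact 95% interval of 0.813 to 42.1. A difference in IL19 was not detectable at this depth.

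The 4 ligand genes span 136.5 kb. IL10 and IL19 overlap by 3778 bases on opposite strands, which is 54.4% of IL10. IL20 begins 22.6 kb beyond IL19, and IL24 28.2 kb beyond IL20. The last 823 bases of IL24 overlap FCMR, an immunoglobulin M receptor gene on the opposite strand. Whether counting used the strand is not given in the sources used here, so reads in these overlaps cannot be assigned with certainty. Counts of the overlapping partners were 7 in Melittin and 2 in NC for IL19, and 1305 in Melittin and 1939 in NC for FCMR.

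Changes of this size did not extend to the other genes around the ligands. Of 15 other genes within 500 kb, 10 were tested. Of these 7 rose and 3 fell, where 38.1% of all tested genes rose and 38.3% fell. Their log2 fold changes ran from -1.28 to 1.02, with a median of 0.29. Under scaling by library totals, without TMM, 4 of these 10 rose and 5 fell, because SRGAP2 and RASSF5 turned to lower and YOD1 was no longer called. The genes next to the ligands moved in different directions. MAPKAPK2, which encodes a kinase that acts on cytokine mRNA stability, averaged 339.7 ± 5.69 CPM in Melittin and 207.1 ± 4.998 CPM in NC libraries, a log2 fold change of 0.71. FCMR, which overlaps the end of IL24, averaged 26.9 ± 2.48 CPM in Melittin and 33.0 ± 0.997 CPM in NC libraries, a log2 fold change of -0.29. The epithelial immunoglobulin transporter PIGR had a log2 fold change of -0.38, and IKBKE, a kinase of interferon signalling, one of -1.28. EIF2D, DYRK3 and CD55, a complement regulator, rose by 0.59, 1.02 and 0.83 on the log2 scale, and YOD1, RASSF5 and SRGAP2 by 0.44, 0.14 and 0.10.

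**Figure D2:**
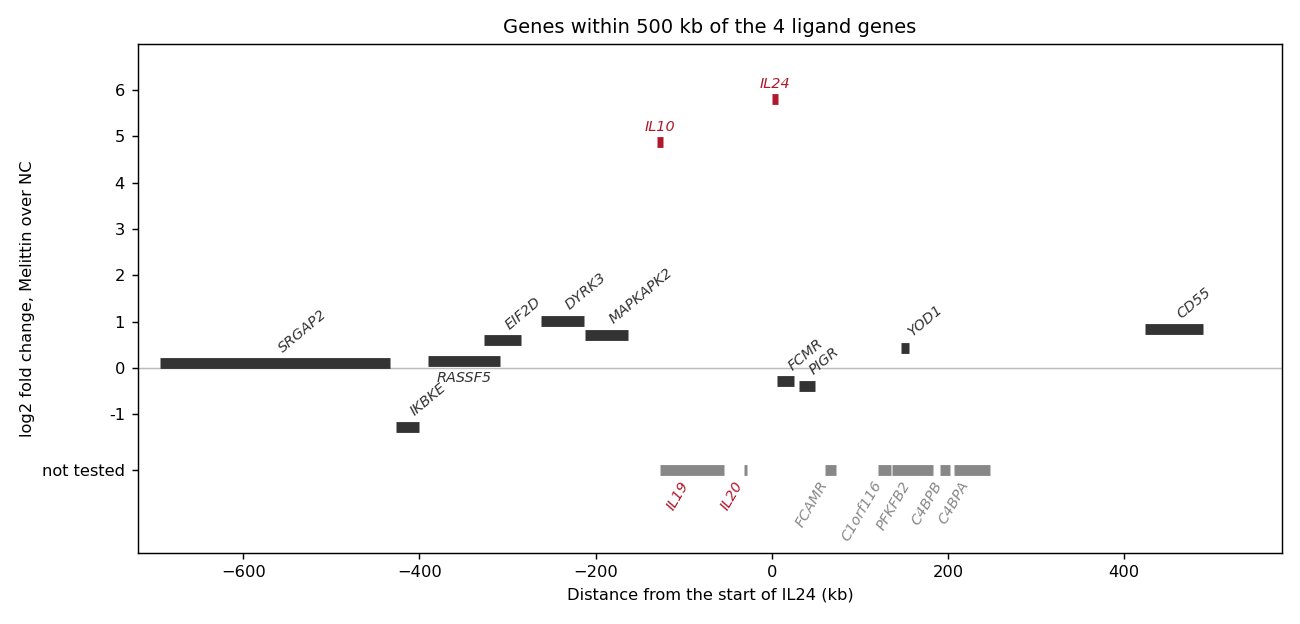
Log2 fold change, Melittin over NC (y axis), of the genes within 500 kb of the ligand genes, by distance from the start of IL24 in kb (x axis); bars span each gene, red for IL24 and IL10, and grey bars in the bottom row were not tested. IL24 and IL10 stand at 5.81 and 4.87, while the 10 other tested genes lie between -1.28 and 1.02.

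Of the receptor chains, IL10RA rose and the others did not pass the test. IL10RA (chromosome 11, 117986370 to 118003037, plus strand), the chain that binds interleukin-10 with high affinity, had 507, 579 and 501 counts in Melittin libraries 1, 2 and 3, against 345, 407 and 296 counts in NC libraries 1, 2 and 3. These were 33.0, 32.2 and 33.6 CPM in Melittin libraries, against 17.0, 19.2 and 17.1 CPM in NC libraries. The Melittin libraries were within 2 CPM of each other and all lay above NC library 2, the highest of the NC libraries. The rise was 1.85-fold (95% interval 1.67 to 2.05; log2 fold change 0.89, SE 0.0721, edgeR adjusted p = 1.09e-11), and 0.66 on the log2 scale under scaling by library totals.

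IL10RB (chromosome 21, 33266367 to 33311420, plus strand), the shared signalling chain, had 55, 67 and 42 counts in Melittin libraries 1, 2 and 3, against 58, 64 and 51 counts in NC libraries 1, 2 and 3. These were 3.58, 3.73 and 2.82 CPM in Melittin libraries, against 2.85, 3.01 and 2.95 CPM in NC libraries. Melittin library 3 lay below all NC libraries and the other Melittin libraries above them. The fold of 1.15 had a 95% interval of 0.880 to 1.51 (edgeR adjusted p = 0.326), which leaves room for a small change in either direction, and its sign turned under scaling by library totals (log2 fold change -0.025). The gene shares 30794 bases, or 68.3% of its span, with a gene on the same strand that has no name in the table (ENSG00000249624) and 0 counts in every library. Whether this overlap lowered the count of IL10RB was not tested.

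IL20RB (chromosome 3, 136946230 to 137011085, plus strand), the chain common to the receptors of interleukin-19, interleukin-20 and interleukin-24, had 5, 13 and 4 counts in Melittin libraries 1, 2 and 3, against 11, 9 and 14 counts in NC libraries 1, 2 and 3. The groups overlapped through Melittin library 2. The log2 fold change of -0.35 had a 95% interval of -1.33 to 0.63 (edgeR adjusted p = 0.512), so neither a fall nor a rise of moderate size can be told at this depth. It shares 5377 bases, 8.29% of its span, with NCK1 on the same strand.

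The other chains of the family were at or near the detection limit. IL20RA and IL22RA1, the partners of IL20RB, and IFNLR1, the lambda interferon chain that pairs with IL10RB, had 0 counts in all 6 libraries. A count of 0 allows up to 0.0573 CPM over the 3 Melittin and 0.0552 CPM over the 3 NC libraries. IL22RA2, a soluble receptor of interleukin-22, had 1 count, in Melittin. The other ligands, IL22, IL26, IFNL1, IFNL2, IFNL3 and IFNL4, also had 0 counts in every library. Both chains of the interleukin-10 receptor were thus detected, and IL20RB without a detected partner chain.

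Per gene length, the order of the members differed between the groups. In Melittin libraries mean levels ran from IL24 (203.1 FPKM) over IL10RA (3.44), IL10 (0.790), IL20 (0.413), IL10RB (0.388) and IL20RB (0.166) to IL19 (0.0230 FPKM). In NC libraries the order was IL24 (4.26 FPKM), IL10RA (2.18), IL10RB (0.396), IL20RB (0.262), IL10 (0.0301), IL20 (0.0160) and IL19 (0.00570 FPKM). Library ranges overlapped between IL10 and IL20 and between IL20 and IL10RB in Melittin, and among IL10, IL20 and IL19 in NC; the other neighbours in each order did not overlap. In the deposited FPKM, IL10 thus stood below both IL10RB and IL20RB in every NC library and above both in every Melittin library. IL10RB shares 68.3% of its span with a gene on the same strand, and IL10 shares 54.4% with IL19 on the opposite strand. Whether reads in these overlaps were counted is not known, so the order between genes may depend on it.

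**Figure D3:**
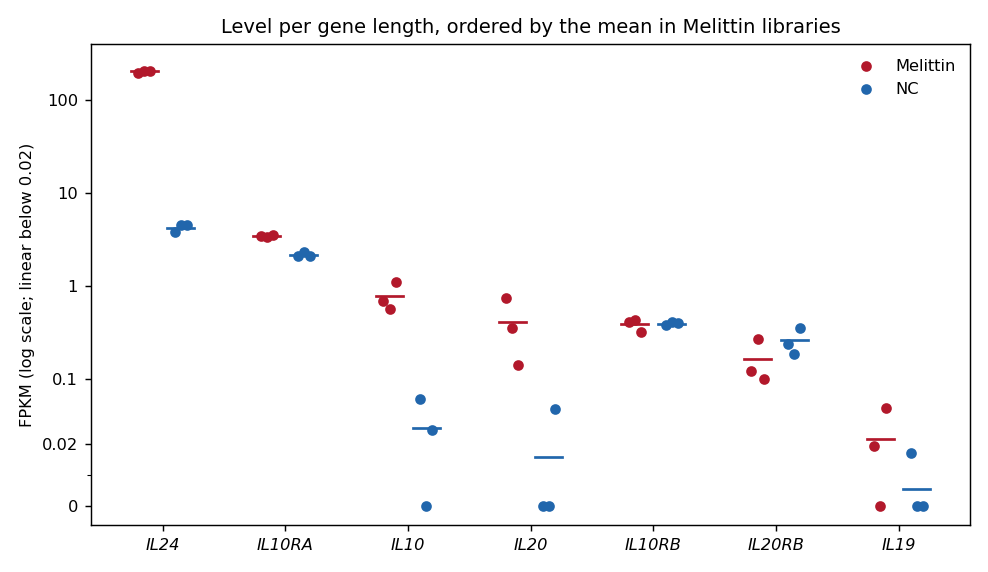
FPKM of each gene (y axis, log scale, linear below 0.02) in 3 Melittin libraries (red, left) and 3 NC libraries (blue, right), with the mean as a line, ordered by the Melittin mean. IL24 stands at 203.1 FPKM in Melittin and 4.26 FPKM in NC, while IL10RB is at 0.388 FPKM in Melittin and 0.396 FPKM in NC.

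The balance of the interleukin-10 receptor chains was compared within libraries. Its size depends on the count of IL10RB, which shares 68.3% of its span with a gene on the same strand. The effect of that overlap on the ratios was not tested. The FPKM of IL10RA was 8.38, 7.85 and 10.8 times that of IL10RB in Melittin libraries 1, 2 and 3, against 5.41, 5.78 and 5.27 times in NC libraries 1, 2 and 3. All 3 Melittin ratios exceeded the NC ratios (two-sided exact permutation test on the log2 ratio, p = 0.1, the smallest that 3 against 3 can give; 0.2 adjusted over 2 such ratios). The ratio of IL20RB to IL10RB averaged 0.416 ± 0.192 in Melittin and 0.662 ± 0.223 in NC libraries (SD, n = 3 each; exact permutation p = 0.3, adjusted 0.3), with overlapping groups.

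Genes that carry or limit the signal of these receptors mostly rose, while STAT3 and JAK2 were among those that fell. Of 14 listed, 13 were tested, 9 rose and 3 fell, where 38.1% of all tested genes rose and 38.3% fell. The median log2 fold change of the list was 0.39, against -0.0069 over all tested genes. Under scaling by library totals 7 of the list rose and 4 fell. JAK1, the kinase bound by IL10RA, averaged 273.8 ± 6.28 CPM in Melittin and 166.1 ± 3.52 CPM in NC libraries. TYK2, the kinase bound by IL10RB, averaged 284.2 ± 2.88 CPM in Melittin and 196.3 ± 4.50 CPM in NC libraries. STAT3, the main transcription factor of the pathway, was lower, at 202.3 ± 0.420 CPM in Melittin and 232.5 ± 8.78 CPM in NC libraries (log2 fold change -0.20, edgeR adjusted p = 1.12e-06). JAK2, a kinase of related cytokine receptors, fell by 0.88 on the log2 scale. The feedback inhibitors CISH, SOCS1 and SOCS3 were higher, CISH at 15.8 ± 0.966 CPM in Melittin and 0.897 ± 0.196 CPM in NC libraries. SOCS1 averaged 1.83 ± 0.877 CPM in Melittin and 0.234 ± 0.0556 CPM in NC libraries, and SOCS3 averaged 61.3 ± 1.83 CPM in Melittin and 9.36 ± 0.624 CPM in NC libraries.

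The other class II cytokine receptors, the structural family to which all these chains belong, moved both ways. Of 5 tested, 2 rose and 3 fell (median log2 fold change -0.17), where 38.1% of all tested genes rose and 38.3% fell. IFNAR2, which lies next to IL10RB on chromosome 21, averaged 9.57 ± 0.882 CPM in Melittin and 3.20 ± 0.535 CPM in NC libraries, and F3, tissue factor, 40.4 ± 3.31 CPM in Melittin and 25.0 ± 1.401 CPM in NC libraries. The unnamed gene that overlaps IL10RB starts before it, at 33229892. Whether that gene also overlaps IFNAR2 and lowered its count was not tested. IFNAR1, which lies on the other side of IL10RB, averaged 245.7 ± 3.03 CPM in Melittin and 321.1 ± 8.07 CPM in NC libraries, and IFNGR2 and IFNGR1 fell by 0.24 and 0.17 on the log2 scale.

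Genes known to be induced by interleukin-10 in monocytes and macrophages moved mostly up, while the scavenger receptor CD163 and the phagocytic receptors MERTK and FCGR1A fell. Of 18 listed, 17 were tested, 13 rose and 3 fell, with a median log2 fold change of 0.86. Over all tested genes 38.1% rose and 38.3% fell, with a median of -0.0069. Under scaling by library totals 11 of the list rose and 4 fell, as IL4R turned to lower. SOCS3 and DDIT4, an inhibitor of mTOR signalling, had the largest rises, by 2.71 and 2.08 on the log2 scale. CD163 averaged 9.89 ± 0.826 CPM in Melittin and 76.5 ± 3.97 CPM in NC libraries, and MERTK 11.3 ± 0.790 CPM in Melittin and 48.6 ± 2.32 CPM in NC libraries. FCGR1A, the high-affinity immunoglobulin G receptor, fell by 0.98 on the log2 scale. Many of these genes also answer to other stimuli, and SOCS3 stands in both this list and the previous one. Of the macrophage markers, 3 of 11 rose and 5 fell, with the integrins ITGAM and ITGAX at log2 fold changes of 1.31 and 0.90 and CSF1R and PTPRC at -1.62 and -1.399 (2 rose and 8 fell under scaling by library totals); the summed level was 1747 to 1771 CPM in Melittin and 2037 to 2055 CPM in NC libraries.

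**Figure D4:**
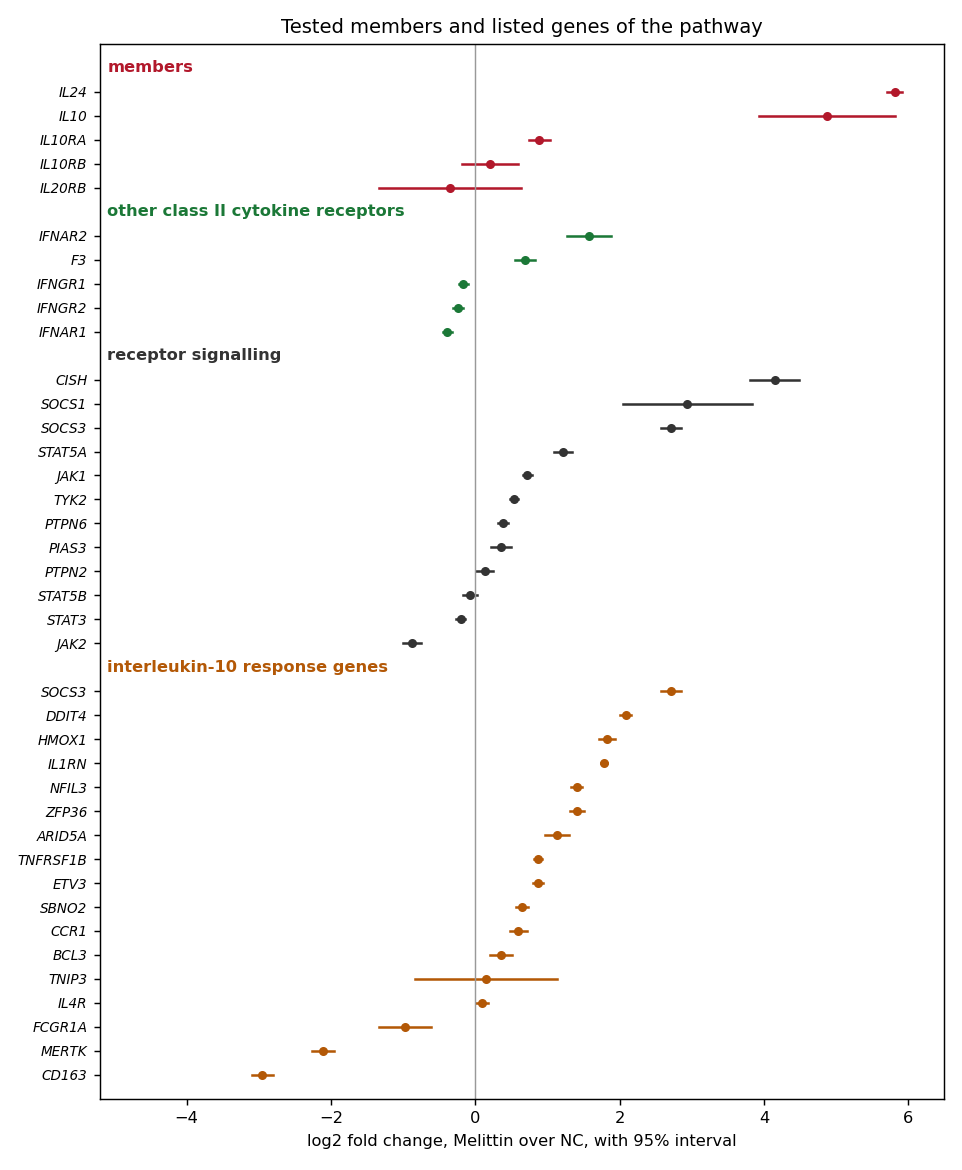
Log2 fold change, Melittin over NC, with its 95% interval (x axis) for the 5 tested members (red) and tested genes of 3 lists, other class II receptors (green), receptor signalling (black) and interleukin-10 response genes (orange). IL24 and IL10 lie to the right of the listed genes except that the intervals of IL10 (3.92 to 5.82) and CISH (3.81 to 4.49) overlap.

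Among 147 tested genes that the deposited table assigns to cytokine-cytokine receptor interaction, IL24 had the 7th and IL10 the 9th largest log2 fold change, and IL10RA the 67th. The genes with the patterns most like those of the members were found by the distance between centred log2 CPM values over the 6 libraries, which mostly reflects the difference between the groups. For IL24 they were CCR7, the chemokine receptor of lymph node homing (distance 0.480), and CSF3, granulocyte colony-stimulating factor (0.694). For IL10 they were TCIM (0.990) and PRTN3, proteinase 3 (1.14). SLC25A23 (0.0730) and ARRDC1 (0.0765) were nearest to IL10RA, INCENP (0.126) and TRIM39 (0.138) to IL10RB, and ANKRD63 (0.419) and ZNF514 (0.473) to IL20RB. CCR7 averaged 35.9 ± 2.30 CPM in Melittin and 0.623 ± 0.206 CPM in NC libraries, a much lower level than IL24 with a like fold.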

How the data were processed

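Total RNA of 6 THP-1 libraries was sequenced; per the labels' protocols, the NEBNext Ultra II RNA kit was used. The genome build was GRCh38, per the submitters' processing notes; for the aligner, the counting program, the strand setting and the annotation, nothing is given in the sources used here. The authors' deposited table holds raw read counts per gene, the gene length, and FPKM that the authors made from those counts, lengths and library totals (checked to a relative deviation of 2.2e-09 over values of at least 20 counts). A second deposited table repeats these FPKM. The reference at hand was mouse and was not used; names and coordinates are those of the table, and no sequence is printed.

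The tests used edgeR 4.0.16 under R 4.3.3: filterByExpr (12029 genes kept), TMM factors, glmQLFit and glmQLFTest, Benjamini-Hochberg adjustment, threshold 0.05, Melittin over NC. The SE was derived from the test, as the absolute log2 fold change over the root of F, and intervals follow from it. Levels between genes were compared in FPKM. Alternatives were other scalings, DESeq2 1.42.0, limma 3.58.1 (voom, and log2 of FPKM plus 0.1 or 1), other filters, a test against 1.5-fold, a replicate block and leaving out each library. The procedure was run on simulated counts with an equal spread for all genes and few changed genes, in both directions. That setting differs from these data, where most tested genes passed, so it does not show how the tests behave here. Replicates differed by more than sampling noise (chi-square per degree of freedom 2.23 to 3.92 within Melittin, 1.73 to 1.76 within NC, 164.6 to 197.2 across groups). That spread cannot tell separate cultures from repeated libraries of the same culture. Each library was entered in the tests as 1 replicate. No batch is given in the labels.

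The members and gene lists were chosen with earlier results of these data known. Named genes are the 7 members, up to 2 genes a direction for each list with the largest change and a mean of at least 1 CPM, called neighbours within 500 kb, and the 2 nearest patterns for each tested member; JAK1, TYK2, STAT3, SOCS3, IFNGR1, FCGR1A, CD14, SPI1, LYZ, CD68 and the markers at or near 0 were named after their values were seen, as was the cytokine term of the deposited annotation. Values of some genes that this rule would name are not reported here.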

Additional observations from a re-analysis of the deposited data

How the results depend on the processing

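IL24, IL10 and IL10RA kept their direction and stayed past the threshold under all 17 alternatives, with log2 fold changes of 5.28 to 5.86, 0.79 to 5.96 and 0.48 to 0.95; the lowest values came from log2(FPKM + 1), where a pseudocount above the level of a gene shrinks its fold (IL10 2.76 with 0.1 and 0.79 with 1). IL10RB and IL20RB passed under none of their 17 and 15 alternatives. The log2 fold change of IL10RB was below 0 under scaling by library totals (-0.025) and on log2(FPKM + 0.1) and log2(FPKM + 1) (-0.032 and -0.0097). IL20RB was not tested without Melittin replicate 2 or with at least 1 CPM in 3 libraries. Over all genes, 3495 passed against a 1.5-fold change in place of 9190, and 8857 to 9147 with a library left out. With a library left out the members past the threshold stayed at 3, and those with groups apart were 4 to 6, the highest without Melittin replicate 2. Under scaling by library totals the median over all genes was -0.24 in place of -0.0069 on the log2 scale, and 33.6% of calls were higher in place of 49.8%. Without a filter IL20 also passed, and its leave-one-out values, added after the data were seen, were 3.93 to 6.39 (adjusted p 8.36e-06 to 0.00678); IL19 did not pass (log2 fold change 1.89, adjusted p = 0.222; 0.71 to 4.41 with a library left out). With the replicate number as a block, 9050 genes passed, and the same number of members, 3. The samples share only a number: same-numbered libraries had correlations of deviations from the group means of -0.0461, 0.0178 and -0.0191, and not every library correlated best with its own number. IL19, IL20 and IL20RB are limited by depth, at 28 counts or fewer per group for the ligands and 34 or fewer for IL20RB.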

Other observations

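Genes of factors and kinases known to act on IL10 transcription in macrophages were mostly higher in Melittin than in NC libraries. Of 24 listed, 23 were tested, 17 rose and 5 fell, with a median log2 fold change of 0.46. Over all tested genes 38.1% rose and 38.3% fell, with a median of -0.0069. Under scaling by library totals 12 of the list rose and 5 fell. MAPK3, the kinase ERK1, averaged 85.0 ± 3.90 CPM in Melittin and 42.6 ± 2.65 CPM in NC libraries, and FOS, a subunit of AP-1, 161.3 ± 4.35 CPM in Melittin and 80.8 ± 2.02 CPM in NC libraries. NFKB1, a subunit of NF-kappa-B, averaged 72.1 ± 2.07 CPM in Melittin and 88.6 ± 2.95 CPM in NC libraries (SD, n = 3 each). MAF, a transcription factor of IL10 in several immune cells, rose by 0.51 on the log2 scale, and was named after its value was seen. ATF1, STAT3 and AHR, named in the same way, were among those that fell, with log2 fold changes of -0.30, -0.20 and -0.15. STAT3 also stands in the list of receptor signalling, and MAPKAPK2 of this list is also a neighbour of the ligand genes, so these lists are not separate observations.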
